A study of Mus musculus with 6 samples.

Results

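The 9 genes described here encode or regulate SREBP, the transcription factor that switches on lipid synthesis, or act in sterol and lipoprotein transport. They were chosen by name, as the probe sets whose only platform gene symbol is Srebf1, Srebf2, Scap, Insig1, Insig2, Vldlr, Mylip, Abca1 or Abcg1, and each gene had 1 probe set. They are 9 of 15153 genes read by a probe set with a single symbol. RNA came from presomitic mesoderm, the unsegmented tail tissue of the mouse embryo that gives rise to somites, microdissected at embryonic day 9.5 from embryos of 17 to 19 somites. Each of 6 arrays read a pool of 3 presomitic mesoderms, with 3 mutant and 3 control pools. Mutant embryos were TCre/+;Taf10flox/flox, which removes Taf10 where the Brachyury-driven Cre is active, and Taf10 encodes a subunit shared by TFIID and SAGA. Control embryos were Taf10Flox/+ or Taf10flox/flox and are labelled WT, so every embryo carried at least 1 floxed allele. How completely the cells of a pool had lost Taf10 was not measured. Replicates are separate pools by their labels, and a p-value here sets a difference against the spread from pool to pool. In limma that spread is each probe set's own, drawn toward the spread typical of all probe sets. Its SE and interval use the same spread, so a gene with very even pools need not pass.

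SREBP precursors sit in the endoplasmic reticulum bound to SCAP, which carries them to the Golgi for cleavage when sterols are scarce. When sterols are plentiful, INSIG1 and INSIG2 hold SCAP back, and the liver X receptors (LXR), which sense oxysterols, raise the efflux transporters ABCA1 and ABCG1 and the ubiquitin ligase MYLIP (also called IDOL). MYLIP marks the lipoprotein receptors VLDLR and LRP8 for degradation, and both are also the receptors of the signalling protein Reelin.

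Of the 9 genes, Mylip and Vldlr fell in mutant presomitic mesoderm, 0 rose and 7 did not pass the threshold (limma, adjusted p under 0.05 over 16311 probe sets). Of all genes 5.92% were called in either direction, and 2.96% were called lower in the mutant. In 0 of the 9 genes did all 3 mutant values lie above all 3 control values, against 2599 of all 15153 genes. In 5 of the 9 genes all 3 mutant values lay below all 3 control values (55.6%), against 15.1% of all genes. These 5 were Mylip, Vldlr, Abca1, Insig1 and Srebf1. The median log2 change of the 9 genes was -0.08 and that of all genes 0.03. The 9 genes were listed with results of these arrays already known, so these counts describe them and single nothing out.

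Stretches upstream of 4 of these 5 genes and of Srebf2 are shown first, because SREBP, LXR and their partners act by binding such sequence. Each runs over the 250 bases before a RefSeq start site in GRCm38.p6, with matched elements in capitals. The table used gave 14 start site windows for 8 of the 9 genes and none for Abcg1. The 3 windows of Srebf1 and the other start of Vldlr, which held 0 matches, are not printed. What the Srebf2 label calls a sterol element is only a match to a shortened form of the core, and no binding was measured.
Mylip, chr13:45389492-45389741, plus strand: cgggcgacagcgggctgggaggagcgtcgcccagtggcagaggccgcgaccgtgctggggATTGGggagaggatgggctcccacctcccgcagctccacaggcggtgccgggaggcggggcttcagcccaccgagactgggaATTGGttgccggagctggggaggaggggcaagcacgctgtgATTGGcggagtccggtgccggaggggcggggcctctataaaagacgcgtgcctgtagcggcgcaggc
Vldlr, chr19:27216770-27217019, plus strand: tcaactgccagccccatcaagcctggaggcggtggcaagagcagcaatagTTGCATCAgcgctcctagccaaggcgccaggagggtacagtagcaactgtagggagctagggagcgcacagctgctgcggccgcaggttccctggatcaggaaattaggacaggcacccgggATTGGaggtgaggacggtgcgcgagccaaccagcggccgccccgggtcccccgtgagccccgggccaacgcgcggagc
Insig1, chr5:28071162-28071411, plus strand: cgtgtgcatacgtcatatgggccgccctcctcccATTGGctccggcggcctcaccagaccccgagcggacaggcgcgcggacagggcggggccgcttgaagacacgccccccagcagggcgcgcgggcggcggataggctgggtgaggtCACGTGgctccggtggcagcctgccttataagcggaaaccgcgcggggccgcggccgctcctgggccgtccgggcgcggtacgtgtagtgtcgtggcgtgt
Abca1, chr4:53159896-53160145, minus strand: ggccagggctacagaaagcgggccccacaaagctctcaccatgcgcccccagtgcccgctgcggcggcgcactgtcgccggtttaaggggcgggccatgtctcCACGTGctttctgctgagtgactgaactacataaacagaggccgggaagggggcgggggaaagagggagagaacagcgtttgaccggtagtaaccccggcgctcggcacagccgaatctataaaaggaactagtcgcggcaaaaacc
Srebf2, shown because it holds a sterol element, chr15:82147019-82147268, plus strand: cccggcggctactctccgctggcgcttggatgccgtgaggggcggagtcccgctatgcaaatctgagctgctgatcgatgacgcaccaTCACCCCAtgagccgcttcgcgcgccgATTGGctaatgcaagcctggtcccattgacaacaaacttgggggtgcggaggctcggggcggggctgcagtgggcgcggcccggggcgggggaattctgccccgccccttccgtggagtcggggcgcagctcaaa

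Both strands were searched over these bases and the 50 that follow each start. The CCAAT box (CCAAT), which NF-Y binds, occurred 3 times before Mylip, at 190, 108 and 67 bases upstream, always on the opposite strand as ATTGG. It also occurred 3 times before a start of Insig2, and once each before 2 starts of Srebf1, this start of Vldlr, Insig1 and Srebf2, and it is found in 37.4% of all 32851 start site windows. The E-box (CACGTG) stood 101 bases upstream of Insig1 and 147 bases upstream of Abca1, and both overlapping windows of Scap held it, against 7.15% of all windows. The sterol regulatory element core TCACNCCAC, present in 1.24% of windows, was matched in 0 of the 14 windows of the 8 genes. With a core this rare, 0 matches cannot show that a gene lacks an SREBP site. A shorter form of this core lacking the last letter, TCACNCCA, was added after the stretches had been read. This form overlaps the longer one and occurs in 4.36% of windows. It matched once, as TCACCCCA 162 bases upstream of Srebf2. The DR4 element of LXR was searched only in its exact form, AGGTCA repeated after 4 free bases. It was matched in 0 of these 14 windows and in 0.0152% of all. A form so rare cannot show whether a window lacks an LXR element, and looser forms were not searched. The element bound by ATF4 with C/EBP factors (TGATGNAA), also added later, lay 200 bases upstream of Vldlr as TTGCATCA and is found in 3.97% of windows. It also occurred before 2 starts of Insig2. These matches describe letters and do not show binding.

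**Figure D1:**
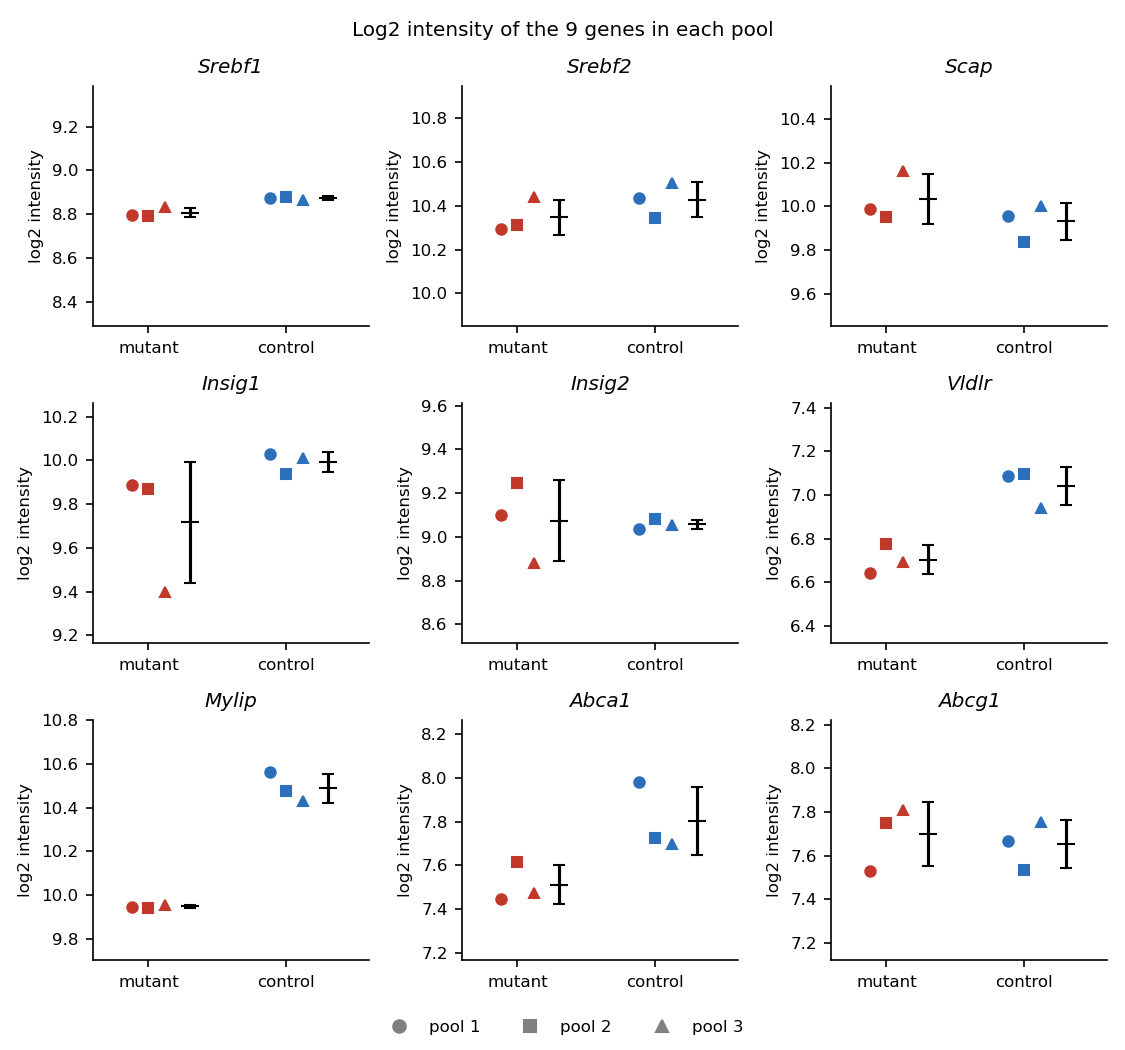
Log2 intensity (y axis) of the 9 genes in 3 mutant (red, left) and 3 control (blue, right) pools; marker shapes give the pool number, and the black bar beside each group is its mean with the SD (n = 3), on axes of equal span. The Mylip points of the mutant lie within 9.94 to 9.96, all below the controls, and the Insig1 point of mutant 3 lies at 9.40, apart from the other 5.

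The pools were alike in overall signal, with array medians between 307.9 and 317.5. Mutant 3 stood furthest from its group, with a root mean square distance of 0.184 on the log2 scale where the rest had 0.0762 to 0.112. Xist, used below as a covariate, had log2 levels of 12.53, 12.13 and 11.35 in mutants 1, 2 and 3. In controls 1, 2 and 3 it read 12.57, 12.03 and 6.32, so control 3 stood apart. The sex of the embryos in each pool was not given here. The deletion cannot be read directly: the Taf10 probe sets changed by -0.37 (adjusted p = 0.0400) and 0.11 (adjusted p = 0.530) on the log2 scale in limma, and which part of the transcript either reads is not known here. Presomitic markers were present: Tbx6 averaged a log2 level of 12.61 in mutant and 11.98 in control pools, and Msgn1 12.55 and 12.16, where the median of all probe sets was 8.29. Of 12 such markers Tbx6 and Hes7 rose, and Cyp26a1 and Rspo3 fell, each by 0.74 on the log2 scale, Cyp26a1 to a mutant level of 6.24. Markers of endothelium and blood varied between pools, and in pooled tissue fewer cells of a type and less RNA per cell cannot be told apart. The mean log2 level of 7 endothelial markers was 6.55, 7.48 and 6.52 in mutants 1, 2 and 3 and 7.95, 6.77 and 7.17 in controls 1, 2 and 3. All 7 had a negative log2 change and 0 passed. For 7 blood markers, embryonic globins among them, the means were 9.24, 9.10 and 8.27 in mutants and 9.03, 8.73 and 9.56 in controls, with 0 called. Neural tube, endoderm, surface ectoderm, notochord and macrophage markers gave 0 calls of 34 in limma, where 3 of the 34 had an unadjusted p under 0.05.

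SREBP genes themselves did not pass. Srebf1, which encodes the SREBP that favours fatty acid genes, had log2 levels of 8.80, 8.79 and 8.83 in mutant pools and 8.88, 8.88 and 8.86 in control pools. The mutant values all lay just below the controls, by 0.03 at the nearest. The log2 change was -0.07 (SE 0.06, 95% interval -0.20 to 0.07, limma adjusted p = 0.526). Srebf2, which encodes the SREBP that favours cholesterol genes, read 10.29, 10.31 and 10.44 in mutant pools and 10.44, 10.34 and 10.50 in control pools. These groups overlapped, and the log2 change was -0.08 (SE 0.07, 95% interval -0.25 to 0.09, limma adjusted p = 0.542). Neither interval shows that the gene stayed level.

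Among the proteins that hold or release SREBP, Insig1 lay lower in the mutant without passing, and Scap and Insig2 overlapped between groups. Insig1, itself a target of SREBP and so a gene that usually follows sterol demand, read 9.89, 9.87 and 9.40 in mutant pools and 10.03, 9.94 and 10.01 in control pools. Mutant 3 was far lower than the other mutants, which lay within 0.13 of the control mean. The mean change was -0.28 (SE 0.13, 95% interval -0.57 to 0.02, limma adjusted p = 0.253), and without mutant 3 it was -0.12 (adjusted p = 0.223). Insig2, whose product has the same role and which is less tied to SREBP, read 9.10, 9.25 and 8.88 in mutant pools and 9.04, 9.08 and 9.06 in control pools. The mutant values spread on both sides of the controls, with a log2 change of 0.02 (SE 0.10, 95% interval -0.20 to 0.24, limma adjusted p = 0.933). Scap, the sterol-sensing escort of SREBP, read 9.99, 9.95 and 10.16 in mutant pools and 9.96, 9.84 and 10.00 in control pools. Mutant 3 was its highest pool, and the log2 change was 0.10 (SE 0.08, 95% interval -0.09 to 0.29, limma adjusted p = 0.491).

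Lipoprotein uptake gave both calls. Mylip, the ligase that removes lipoprotein receptors, had log2 levels of 9.95, 9.94 and 9.96 in mutant pools and 10.56, 10.48 and 10.43 in control pools. All mutant values lay below all control values, with a gap of 0.47 between the nearest pools and a mutant SD of 0.0076 against 0.066 in controls. Mylip fell to 68.7% of control (log2 -0.54, SE 0.06, 95% interval -0.69 to -0.39, limma adjusted p = 0.00675), which placed it at rank 71 of 16311 probe sets by p. It held when any mutant pool or control 3 was left out. Leaving out control 1 or control 2 ended the call (adjusted p = 0.0501 and 0.0539), with changes of -0.51 and -0.55.

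Vldlr, a receptor for triglyceride-rich lipoproteins and Reelin, read 6.64, 6.78 and 6.69 in mutant pools and 7.09, 7.10 and 6.94 in control pools. The groups did not overlap, with a gap of 0.16. Vldlr fell to 79.1% of control (log2 -0.34, SE 0.07, 95% interval -0.51 to -0.17, limma adjusted p = 0.0382). Its level was low in every pool, below the median log2 level of all probe sets (8.29). The 34 markers of neural tube, endoderm, surface ectoderm, notochord and macrophages averaged 7.06, 7.07 and 7.08 in controls 1, 2 and 3. Whether Vldlr was expressed at all at such a level was not tested. The Vldlr call held with mutant 3 removed (adjusted p = 0.0222) and ended on removing mutant 1 (0.105) or mutant 2 (0.0721). Removing any one control also ended it, with adjusted p-values of 0.164, 0.176 and 0.0629 for controls 1, 2 and 3, while the change stayed between -0.39 and -0.31. Calls over all genes dropped alongside, to 41 on removing control 1 and 67 on removing control 2, against 897 with all pools. The endothelial marker mean was 7.48 in mutant 2, the mutant pool with the most Vldlr. In controls 1, 2 and 3 it was 7.95, 6.77 and 7.17. Among these, Vldlr was highest in control 2, the control with the lowest endothelial mean. The part of endothelial cells in the Vldlr change was not tested.

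**Figure D2:**
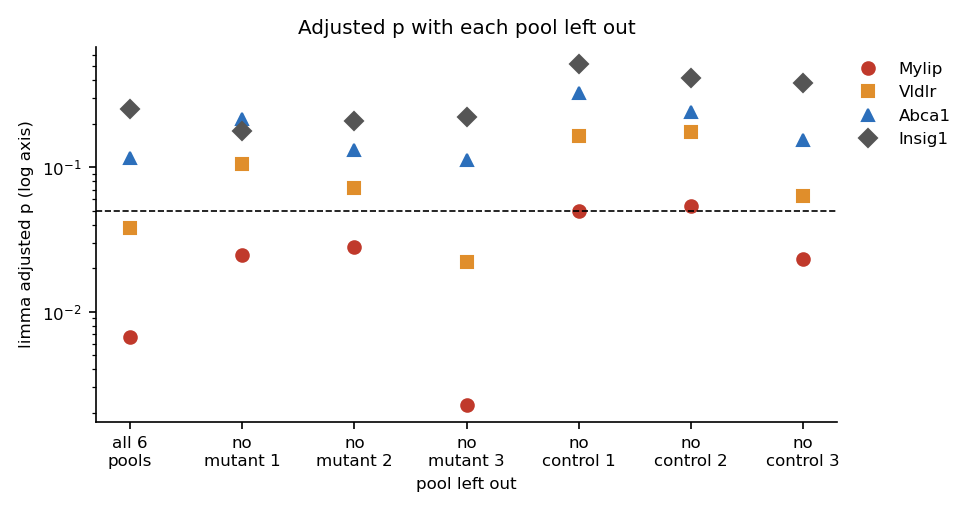
Limma adjusted p (y axis, log scale) of Mylip, Vldlr, Abca1 and Insig1 with all 6 pools and with each mutant or control pool left out (x axis); the dashed line is 0.05. Mylip lies at 0.0501 and 0.0539 without controls 1 and 2, Vldlr is under the line only with all pools and without mutant 3, and Abca1 and Insig1 lie above it throughout.

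Neither efflux gene passed. Abca1, which loads cholesterol onto apolipoprotein A-I, read 7.45, 7.62 and 7.47 in mutant pools and 7.98, 7.73 and 7.70 in control pools. The groups did not overlap, and control 1 was the highest pool. The log2 change was -0.29 (SE 0.09, 95% interval -0.51 to -0.07, limma adjusted p = 0.115, unadjusted p = 0.0150). With Mylip and Vldlr, 3 of the 9 genes had an unadjusted p under 0.05 and a negative change, against 10.9% of all genes. Without control 1 the Abca1 change was -0.20 (adjusted p = 0.325). The highest Abca1 pool of each group, mutant 2 and control 1, was also the pool with the highest endothelial marker mean (7.48 and 7.95). That link was not tested. Abcg1, which passes cholesterol to mature high-density lipoprotein, read 7.53, 7.75 and 7.81 in mutant pools and 7.67, 7.54 and 7.76 in control pools. These values overlapped, with a log2 change of 0.05 (SE 0.09, 95% interval -0.17 to 0.26, limma adjusted p = 0.796), and the sign turned without control 2 or mutant 3 (-0.01 each).

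**Figure D3:**
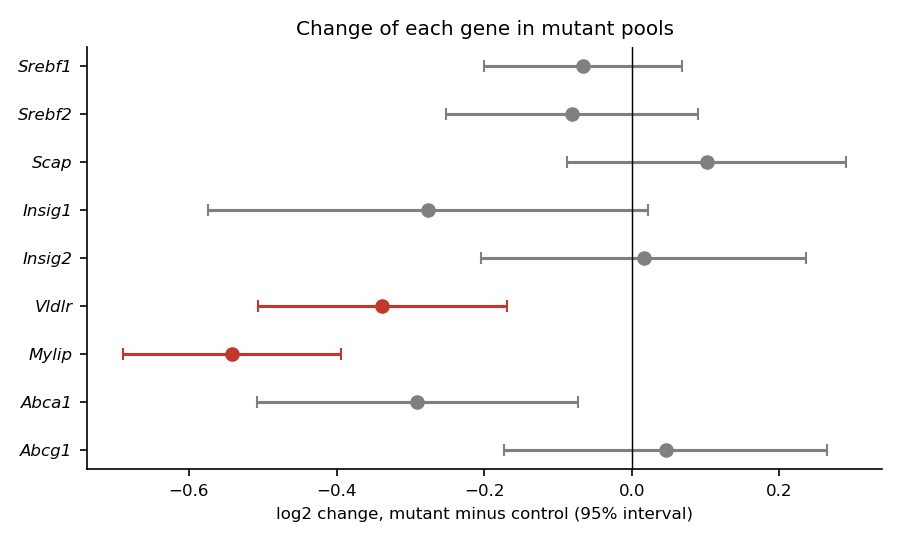
Log2 change, mutant minus control, of each of the 9 genes (x axis) with limma's 95% interval; red marks an adjusted p under 0.05. Mylip at -0.54 and Vldlr at -0.34 are marked, and the unmarked interval of Abca1 (-0.51 to -0.07) also lies below 0.

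Paralogs were compared within each array, as the difference between their log2 values, for 3 pairs. The Insig1 change minus the Insig2 change was -0.29, with all 3 mutant differences (0.79, 0.62 and 0.52) below the control differences (0.99, 0.86 and 0.96). The exact two-sided permutation test gave p = 0.1, the smallest that 3 against 3 allows, and 0.15 adjusted over the 3 pairs. Abca1 against Abcg1 gave -0.34, with mutant differences of -0.08, -0.14 and -0.34 and control differences of 0.32, 0.19 and -0.06, and the same exact p (0.1, adjusted 0.15). Srebf1 and Srebf2 changed by amounts that differed by 0.01 (exact permutation p = 0.8, adjusted 0.8), with a sign that turned after quantile normalization.

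Genes around the 9 in the same pathways were followed through 7 lists. Of 101 listed genes other than the 9, 85 were read here, and 2 rose and 13 fell (17.6% called, against 5.92% of all genes). The median log2 change of the 85 was -0.09, against 0.03 for all genes. The lists were drawn up with earlier results of these arrays known, and some share genes.

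Cholesterol synthesis genes, the main targets of SREBP2, made up 8 of the 13 falls. From mevalonate to lanosterol 3 of 9 fell and 6 did not pass: Sqle, the squalene epoxidase (log2 -0.71, SE 0.10), Fdps, the farnesyl diphosphate synthase (log2 -0.62, SE 0.09), and Lss, the lanosterol synthase (log2 -0.57, SE 0.08). From lanosterol to cholesterol 5 of 9 fell and 4 did not pass: Msmo1 (log2 -1.36, SE 0.20), Sc5d (log2 -0.52), Nsdhl (log2 -0.50), Hsd17b7 (log2 -0.39) and Dhcr7 (log2 -0.35). Limma adjusted p-values of the 8 lay between 0.00988 for Nsdhl and 0.0438 for Dhcr7. The median log2 changes of the lists were -0.46 and -0.39, beside -0.08 for Srebf2 and 0.10 for Scap. As with Insig1, mutant 3 lay lowest in the first list, whose median below the control mean was -0.37, -0.26 and -0.72 in mutants 1, 2 and 3. Idi1, the isopentenyl diphosphate isomerase, read 10.41, 10.55 and 9.28 in mutant pools and 10.59, 10.64 and 10.64 in control pools, and did not pass (log2 -0.55, SE 0.29, adjusted p = 0.312). Mvd, at log2 -0.28, and Hmgcs1, at -0.46, did not pass either (adjusted p = 0.0508 and 0.0720), nor did Fdft1 (-0.37, adjusted p = 0.0762). In the second list Cyp51, at -0.39, and Ebp, at -0.15, did not pass (adjusted p = 0.113 and 0.409). Idi1 was named after its values were seen.

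Fatty acid genes under SREBP1 gave 2 falls among 12. Scd1, a stearoyl-CoA desaturase that LXR also raises, read 10.25, 10.36 and 10.35 in mutant pools and 11.28, 11.22 and 11.18 in control pools. Its groups lay far apart, and it fell to 53.3% of control (log2 -0.91, SE 0.07, limma adjusted p = 0.00186). Elovl6, an elongase of saturated fatty acids, fell to 71.1% (log2 -0.49, SE 0.08, adjusted p = 0.0181). Fasn, the fatty acid synthase, had a log2 change of -0.22 (adjusted p = 0.0806) and Scd2 one of -0.19 (adjusted p = 0.142), and the list's median was -0.13.

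Among 18 genes for the processing, degradation and partners of SREBP, 2 fell and 16 did not pass. Nfyc, a subunit of the NF-Y factor that binds CCAAT boxes beside SREBP, read 10.78, 10.72 and 10.77 in mutant pools and 11.22, 11.11 and 11.07 in control pools. It fell to 77.0% of control (log2 -0.38, SE 0.07, limma adjusted p = 0.0217), while the other NF-Y subunits Nfya (log2 -0.01, adjusted p = 0.960) and Nfyb (log2 -0.20, SE 0.21, adjusted p = 0.598) did not pass. Nfya and Nfyb were named after their values were seen. Pgrmc1, a membrane protein that binds INSIG1 and SCAP, fell to 83.9% (log2 -0.25, SE 0.06, adjusted p = 0.0459). That call was lost with the replicate block (adjusted p = 0.0625), after quantile normalization (0.0564) and with the Xist level as a covariate (0.0981). Erlin1, Rnf145 and Sp1 had changes of -0.29, -0.26 and -0.12 and did not pass.

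Of 19 genes for lipoprotein uptake and sterol traffic, Lrp8 fell and 18 did not pass. Lrp8, the second Reelin receptor and a target of MYLIP like VLDLR, read 9.46, 9.29 and 9.30 in mutant pools and 9.83, 9.82 and 9.83 in control pools. The groups did not overlap, and Lrp8 fell to 72.1% of control (log2 -0.47, SE 0.07, limma adjusted p = 0.0124). The ligase and both of these receptors thus fell at the level of RNA, and protein was not measured. In the Reelin list of 5, which shares Lrp8, the ligand Reln lay higher in mutants without passing (log2 0.26, SE 0.09, adjusted p = 0.158), and the adaptor genes Dab1 and Crkl had log2 changes of -0.08 and 0.08 and did not pass. Stard4, which carries sterols through the cytosol, and Lipa, the lysosomal acid lipase, had changes of -0.59 (SE 0.17, adjusted p = 0.0910) and -0.38 (adjusted p = 0.102).

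The LXR list is mixed, holding receptors, cofactors, targets and other sterol enzymes and transporters, and it leaves out Mylip, Abca1 and Abcg1. It gave 2 rises and 0 falls among 14, and neither rise is read here as a change of an LXR target. Scd1, which LXR also raises and which fell, was counted with the fatty acid genes and not here. Cyp27a1, the mitochondrial sterol hydroxylase that makes an LXR ligand, read 9.12, 9.11 and 9.47 in mutant pools and 8.65, 8.51 and 8.60 in control pools. It rose 1.56-fold (log2 0.64, SE 0.11, limma adjusted p = 0.0166), and mutant 3 was the highest pool. Abca2, an endosomal transporter, rose 1.25-fold (log2 0.33, SE 0.07, adjusted p = 0.0336). The receptor gene Nr1h3 had a log2 change of 0.12 (adjusted p = 0.358) and its partner Rxra -0.14 (adjusted p = 0.233). Nr1h3 was named after its value was seen. Ncoa5, which encodes a nuclear receptor coactivator, lay at -0.21 (adjusted p = 0.109) with all mutant values below the controls, and Lpcat3, an LXR target, lay at -0.24 (adjusted p = 0.177). The median of the list was 0.05, beside -0.54 for Mylip and -0.29 for Abca1, but it is not a median of LXR targets alone.

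**Figure D4:**
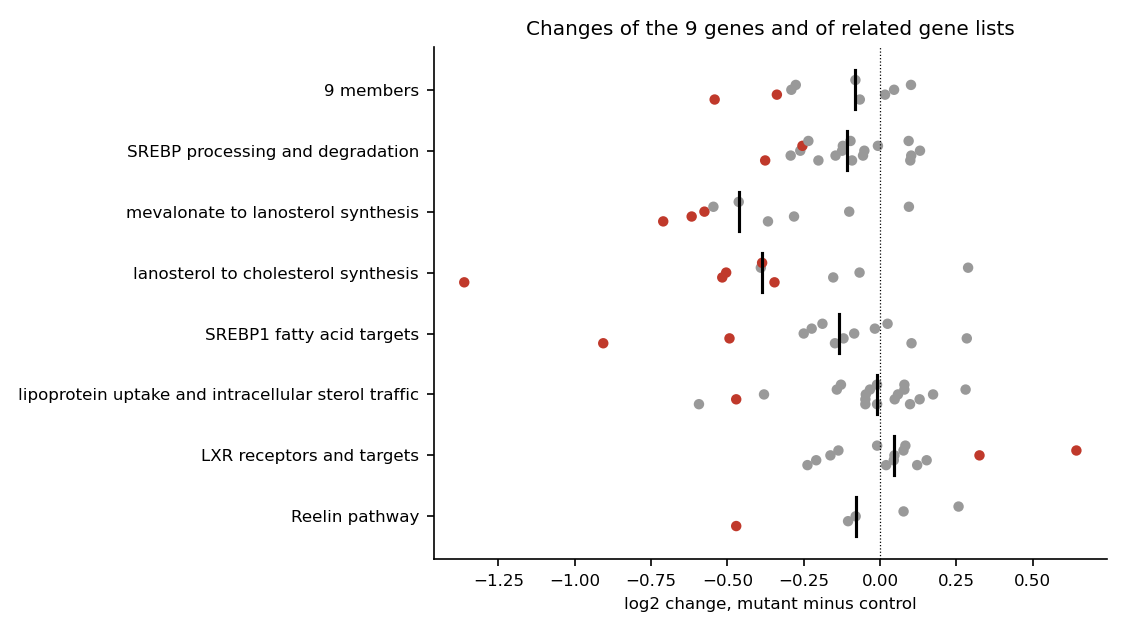
Log2 change, mutant minus control (x axis), of the 9 genes (top row) and of the genes read in each of 7 related lists; each point is a gene, red marks an adjusted p under 0.05, and the black bar is the median. The bars of both cholesterol synthesis lists stand at -0.46 and -0.39 and that of the 9 genes at -0.08.

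Scd1 was the 1 gene of the 15 called in these lists that also passed with each pool left out in turn. Counted anew over all 85 genes read, calls came to 11, 10 and 24 without mutants 1, 2 and 3. Without controls 1, 2 and 3 they came to 1, 1 and 9. Of all genes 3.10%, 2.34% and 12.8% were called without mutants 1, 2 and 3. Without controls 1, 2 and 3 the shares were 0.271%, 0.442% and 2.13%, so these counts moved with the whole table.

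The genes whose pool-by-pool pattern was closest to that of a called gene were found by the root mean square difference of values minus the control mean over the 6 arrays. For Mylip these were Mettl25 (0.0193 log2 units), Crtap, which acts in collagen prolyl hydroxylation (0.0394), and the amino acid transporter gene Slc43a1 (0.0412). Each of the 3 was called lower, by -0.53, -0.57 and -0.57. For Vldlr they were Ppp1r9a (0.0340), the mitochondrial ribosomal gene Mrps33 (0.0410) and the transporter gene Slc35b1 (0.0411), with changes of -0.30, -0.36 and -0.33. Ppp1r9a did not pass (limma adjusted p = 0.0727). These matches are a description over 6 arrays and carry no test.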

How the data were processed

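Expression was read on 6 arrays, from 150 ng of total RNA per the labels' protocols. The deposited intensity values came from RMA, per the submitters' processing notes, while its version and any filter were not given in the sources used here. On a linear scale, the table holds 18064 probe sets, of which the 16311 with 1 gene symbol were used. After a log2 transform with no other scaling, limma 3.58.1 (R 4.3.3; lmFit, eBayes, no covariate) compared 3 mutant with 3 control arrays, with Benjamini-Hochberg adjustment over those 16311. A gene with several probe sets was represented by its brightest. Paralogs were compared by exact permutation tests (scipy 1.17.1). The fit was tested on simulated data, in which fewer probe sets changed than were called here. It recovered 1 of 50 changes of 0.25 on the log2 scale, 22 of 50 changes of 0.5 and 48 of 50 changes of 1. A gene that did not pass may therefore still have changed by such smaller amounts. The members and lists were chosen with earlier results of these data known. Named are the 9 genes, list genes past the threshold, the 3 further genes of each list with the smallest p, Taf10 and the closest patterns, apart from exceptions stated and markers. The number of arrays limits the precision. Start sites and sequences are RefSeq's, GRCm38.p6, matched by symbol.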

Additional observations from a re-analysis of the deposited data

How the results depend on the processing

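Mylip and Vldlr were the calls among the 9 genes with the replicate block, quantile normalization, median centring, all probe sets, trended and robust eBayes, array weights, a pseudocount of 16, the Xist level as a covariate and a threshold of 0.1, and without control 3 and mutant 3 together (2 calls each); with the Xist covariate Vldlr had an adjusted p of 0.04995. The filter at the 40th percentile of level left 6 of the 9 genes to test and 1 call, Mylip, since Vldlr, Abca1 and Abcg1 were removed. With 1 pool left out the count ran from 0 to 2. For the pathway lists, with 15 calls, array weights gave 36, leaving out control 3 and mutant 3 together gave 23, and leaving out 1 pool gave 1 to 24. The Xist covariate gave 11, without Pgrmc1 (adjusted p = 0.0981), Hsd17b7 (0.0549), Dhcr7 (0.0745) and Abca2 (0.0679), and Dhcr7 was also lost with trended and robust eBayes (0.0501). Over all genes array weights called 3608 in place of 897, so that count moved with the whole table. Signs turned for Insig2 without mutant 2 (-0.069), for Abcg1 without control 2 (-0.012) and without mutant 3 (-0.010), and for the Srebf1 and Srebf2 pair after quantile normalization (-0.0077), and for that pair the values with 1 pool left out ran from -0.028 to 0.060. For Insig2 and Abcg1 they ran from -0.069 to 0.11 and from -0.012 to 0.13. The cause of these turns was not tested.

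With the replicate block the pathway count was 17, of which 14 were among the 15 (Pgrmc1 was lost), and that of the 9 genes was 2. Same-numbered pools had correlations of their deviations of 0.13, 0.08 and 0.32, and mutant 2 went best with control 1 (0.20), so the numbers were not taken as pairs.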

Other observations

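A few genes of sterol and lipid synthesis lay higher in the mutant, beside the many lower ones, as did Snx17 of the uptake and traffic list. None of them passed. Tm7sf2, which encodes a sterol reductase whose step LBR can also carry out, stood 0.29 higher on the log2 scale (SE 0.09, limma adjusted p = 0.0982), with all mutant values above the controls, while Lbr was at -0.07. Acss2, the cytosolic acetyl-CoA synthetase and a known SREBP target, lay at 0.28 (SE 0.10, adjusted p = 0.144), also without overlap. Snx17, a sorting nexin that recycles membrane receptors, lay at 0.28 (SE 0.07, adjusted p = 0.0634). Lbr was named after its value was seen.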
